A study of Mus musculus with 6 samples.

Results

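Oxytocin and vasopressin are short peptide hormones made in the paraventricular and supraoptic nuclei of the hypothalamus, and vasopressin also in the suprachiasmatic nucleus. Each is cut from a precursor that also holds a neurophysin, the protein that carries the hormone in its secretory granule. The oxytocin receptor and the vasopressin receptors V1a and V1b are related G protein-coupled receptors that act through Gq, phospholipase C and inositol trisphosphate. The 5 genes described here, Oxt, Avp, Oxtr, Avpr1a and Avpr1b, were chosen by symbol from the 32531 gene features counted, and all 5 were listed in every library.

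The 6 RNA-seq libraries came from hypothalamus of untreated adult mice of the line Lhx5-TRAP DT154, in which an EGFP-tagged ribosomal protein L10a is made where the driver gene Lhx5 is active. In 3 libraries (IP) the RNA was pulled down with tagged polysomes by anti-EGFP antibodies (translating ribosome affinity purification), and 3 libraries held the unbound RNA of that line, which the titles call input. No mice without the transgene are among these samples, so every value compares fractions of one line. The labels do not say how many animals each library holds or that replicates came from separate animals, so the p-values measure the spread between these samples, which may be technical. Levels below are in CPM, each gene's share of all gene reads scaled to a total of 1000000. Gene reads summed to 32471045 to 46293837 in IP and 32926146 to 40768577 in unbound libraries. In bulk RNA, fewer cells that make a transcript and less transcript per cell cannot be told apart.

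Unbound replicate 3 stood apart from the other unbound libraries before any gene below is read. Its summed level of 14 midbrain and hindbrain markers was 140 CPM, led by the dopamine transporter gene Slc6a3, against 6.59 and 2.61 CPM in unbound replicates 1 and 2. Its 7 striatal markers summed to 135 CPM against 1932 and 1669 CPM, and its 8 choroid plexus markers to 311 CPM against 2707 and 2976 CPM. The same lists summed in IP replicates 1 to 3 to 3.29, 3.20 and 2.44 CPM for midbrain and hindbrain, 296, 333 and 187 CPM for striatum, and 249.2, 413 and 124 CPM for choroid plexus. Of the choroid plexus markers, Ttr was the most abundant. Otx2 alone of them was higher in unbound replicate 3, at 33.5 CPM against 12.2 and 14.7 CPM in unbound replicates 1 and 2. Pan-neuronal markers summed to 21455 to 22764 CPM in IP and 15615 to 17113 CPM in unbound libraries, so the third unbound library did not stand out in that list. Oligodendrocyte markers summed to 331 to 548 CPM in IP, against 3965, 3819 and 7176 CPM in unbound replicates 1 to 3, and vascular markers to 3.5 to 7.70 CPM in IP, against 30.6, 22.1 and 42.8 CPM, so both lists were highest in unbound replicate 3. Astrocyte markers summed to 146 to 338 CPM in IP, against 1685, 1909 and 1528 CPM, and microglia markers to 10.4 to 27.7 CPM in IP, against 137, 103 and 86.8 CPM, so both were lowest there among unbound libraries. The part of this tissue makeup in the results for the members was not tested.

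Oxt lies on chromosome 2 at chr2:130576173-130577054 on the plus strand and Avp at chr2:130580620-130582554 on the minus strand (GRCm38). They face each other tail to tail, 3565 bases apart with 0 annotated genes between them in GENCODE M21. Each has 3 exons and 1 annotated transcript, of 537 bases for Oxt and 577 bases for Avp. The hormones are encoded in the first exon. The stretches below, 45 bases in frame, hold the codons of the hormone and of the cleavage site behind it, and are shown because they carry the difference between the peptides. Capitals mark the 7 bases that differ (coding strand, GENCODE M21 transcripts).
Oxt, chr2:130576258-130576302: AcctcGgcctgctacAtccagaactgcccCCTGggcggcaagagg
Avp, chr2:130582437-130582481: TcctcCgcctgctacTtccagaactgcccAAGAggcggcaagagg

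The neurophysin parts share a long identical run, and their likeness as a whole was not measured. The longest run without a difference between the transcripts was 127 bases, coding bases 119 to 245 of Oxt and 131 to 257 of Avp. All but its first bases lie in exon 2, at chr2:130576591-130576715 for Oxt and chr2:130581133-130581257 for Avp, and it is shown because a read inside it matches both genes.
Shared by Oxt and Avp: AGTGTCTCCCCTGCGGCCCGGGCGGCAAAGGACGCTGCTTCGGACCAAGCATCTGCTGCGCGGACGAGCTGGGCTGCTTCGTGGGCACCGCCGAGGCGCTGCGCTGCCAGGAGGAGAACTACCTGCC
Reads that aligned to more than one place made up 43.8% to 45.03% of IP and 31.8% to 32.9% of unbound reads and are not in the gene counts. The peptide levels are therefore uncertain as absolute values, and the share of Oxt or Avp reads lost in this way was not tested.

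The peptide genes are also unlike in the bases before their start sites, which are shown as a description of the pair. In the 250 bases before the RefSeq start of Oxt (GRCm38.p6, chr2:130575919-130576168, plus strand), capitals mark TGACC or its reverse complement, the core of nuclear receptor binding sites, which was found 5 times there and 0 times before Avp. At least 1 such match stood in 35.2% of 32851 promoter windows of that length.
Oxt: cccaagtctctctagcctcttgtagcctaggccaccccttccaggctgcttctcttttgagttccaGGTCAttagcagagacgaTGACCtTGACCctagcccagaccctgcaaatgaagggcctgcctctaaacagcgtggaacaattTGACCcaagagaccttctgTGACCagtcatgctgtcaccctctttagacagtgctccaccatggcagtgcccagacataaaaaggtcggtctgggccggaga
A direct repeat of this motif with a single-base gap, made of 2 of the 5 matches, stood in 22 of the 32851 windows (0.067%, both strands). In the window of Avp (chr2:130582589-130582838, minus strand), capitals mark CACGTG, the E-box bound by circadian clock factors, found once there, 0 times before Oxt and in 6.02% of windows.
Avp: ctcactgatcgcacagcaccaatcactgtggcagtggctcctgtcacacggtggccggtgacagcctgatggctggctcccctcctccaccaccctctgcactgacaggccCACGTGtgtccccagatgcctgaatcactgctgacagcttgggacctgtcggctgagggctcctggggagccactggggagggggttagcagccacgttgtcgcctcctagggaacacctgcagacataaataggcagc
A match describes letters only, and binding was not measured here. A link between these letters and the levels below was not tested.

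The peptide transcripts were scarce in IP RNA and went to opposite extremes among the unbound libraries. Oxt had 252, 170 and 175 reads in IP replicates 1 to 3, which is 5.80, 5.24 and 3.78 CPM, against 1326, 610 and 3 reads in unbound replicates 1 to 3, which is 34.4, 18.5 and 0.074 CPM. The IP libraries lay close together, within a factor of 1.53, and the unbound libraries lay on both sides of them. IP libraries averaged 4.94 ± 1.04 CPM and unbound libraries 17.7 ± 17.2 CPM (SD, n = 3 each). The log2 fold change was -1.73 ± 1.41 (SE) and did not pass at adjusted p = 0.363. All adjusted p-values are from the quasi-likelihood test of edgeR. Benjamini-Hochberg adjustment was over 16991 genes unless the fit leaves libraries out or changes the count filter.

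Avp, the vasopressin precursor gene, had 221, 203 and 35 reads in IP, which is 5.09, 6.25 and 0.756 CPM, against 2235, 1318 and 3 reads in unbound RNA, which is 58.0, 40.0 and 0.074 CPM. Here the third IP library was low too, at 13.3% of the mean of IP replicates 1 and 2, while Oxt in that library was at 68.5%. IP libraries averaged 4.03 ± 2.90 CPM and unbound libraries 32.7 ± 29.6 CPM (SD, n = 3 each). Its log2 fold change of -2.92 ± 1.71 (SE) did not pass (adjusted p = 0.219, edgeR).

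**Figure D1:**
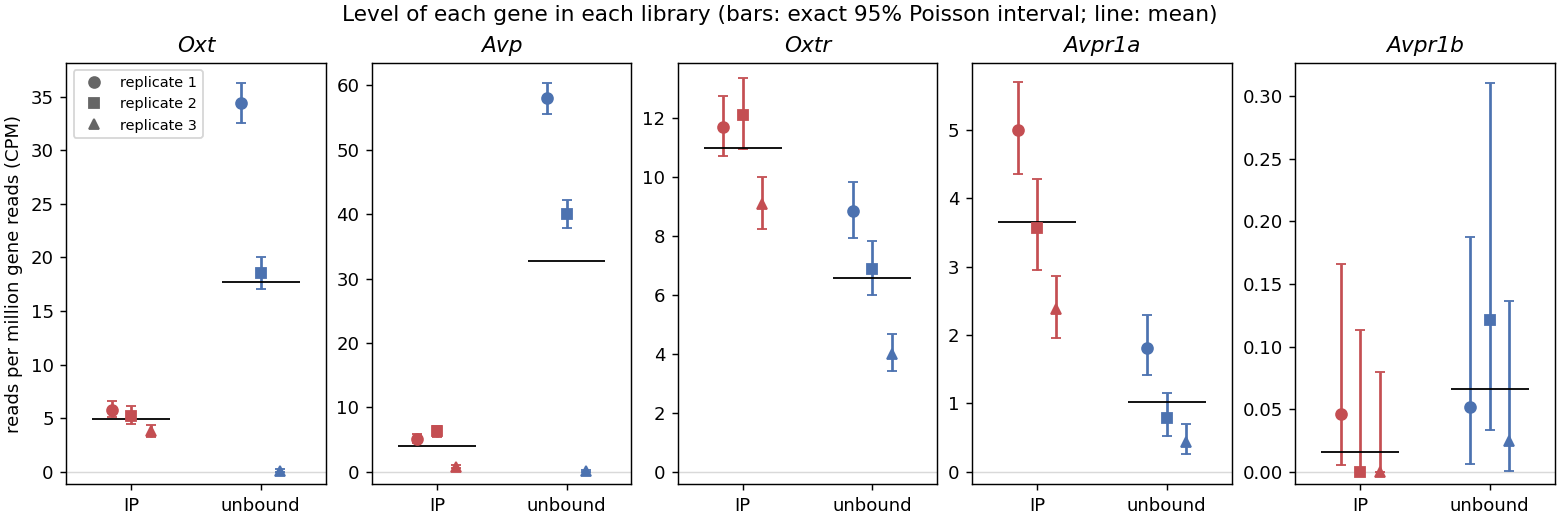
Level of each gene in each library in CPM, IP left of unbound, with a marker per replicate, exact 95% Poisson intervals (counting error only) and a line at the group mean. Oxt and Avp lie at 0.074 CPM in unbound replicate 3 and at 18.5 to 58.0 CPM in the other unbound libraries, while every IP library lies above every unbound library for Oxtr and Avpr1a.

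Unbound replicate 3 was left out with its near absence of both peptides known, so the adjusted p-values of the fits without it depend on that choice and are no independent evidence of a direction. The log2 fold change of Oxt without it was -2.32 ± 0.28 (SE; adjusted p = 2.0e-04, edgeR) and that of Avp -3.53 ± 0.67 (SE; adjusted p = 0.00426, edgeR), which is 5.01-fold and 11.5-fold lower in IP. Without both libraries numbered 3 the values were -2.17 for Oxt (adjusted p = 1.9e-04, edgeR) and -3.02 for Avp (adjusted p = 7.8e-06, edgeR). In the fit without unbound replicate 3, 25.8% of 17256 genes were called lower in IP and 24% higher, and for 39.4% of genes, these 2 among them, every IP library lay below both remaining unbound libraries. Without both libraries numbered 3, 27.3% were called lower and 26% higher. Blocking on replicate number gave -0.70 for Oxt and -2.01 for Avp, and neither passed (adjusted p = 0.759 and 0.248, edgeR), where 23.6% of genes were called lower and 23.3% higher.

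Library by library, the direction turned round in the third pair. IP replicate 1 held 0.169 times the Oxt level of unbound replicate 1 (95% exact interval 0.147 to 0.193) and IP replicate 2 held 0.283 times that of unbound replicate 2 (0.237 to 0.335). IP replicate 3 held 51.4 times the level of unbound replicate 3 (17.3 to 252), a ratio that rests on 3 unbound reads. For Avp the same ratios were 0.088 (0.076 to 0.101), 0.156 (0.134 to 0.181) and 10.3 (3.24 to 52.2). The intervals cover counting error only, and reads are not independent molecules where PCR copied them.

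**Figure D2:**
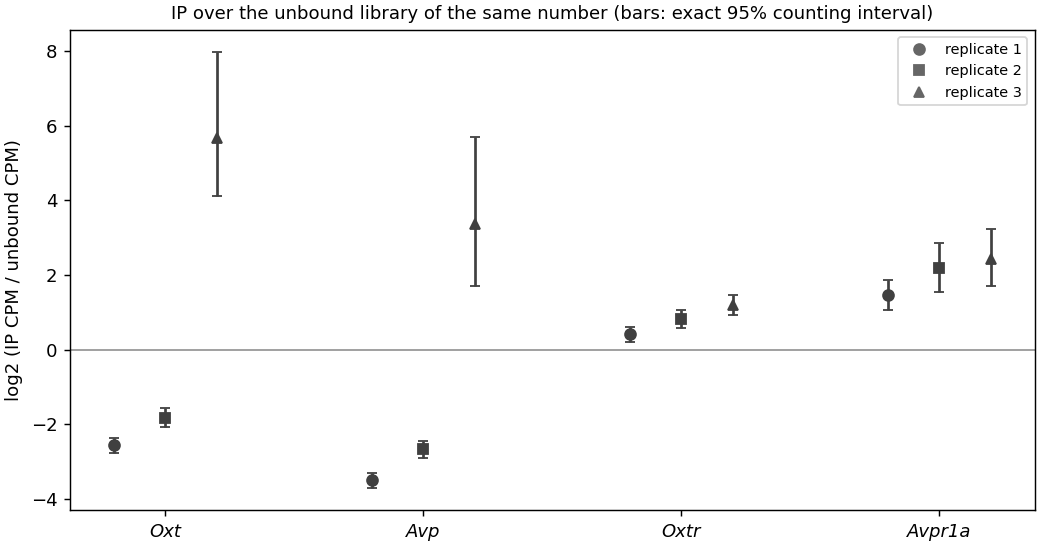
Log2 ratio of the IP level to the level in the unbound library of the same number, with exact 95% counting intervals. Oxt and Avp lie below 0 in the first and second pairs and above 0 in the third, and all 3 pairs of Oxtr and Avpr1a lie above 0.

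In unbound replicate 3 the peptides were close to absent, and few abundant transcripts fell as far. Oxt stood at 0.278% and Avp at 0.150% of their mean in unbound replicates 1 and 2, and the 3 reads of each allow 0.015 to 0.215 CPM (95% exact Poisson interval). Of 9369 genes with at least 10 CPM in both other unbound libraries, 12 (0.128%) were under 1% there, and Avp and Oxt were the fourth and the fifth from the lowest. The 12 included 2 other hypothalamic peptide genes, Hcrt (0 reads; orexin) and Pmch (6 reads; melanin-concentrating hormone). They also included the forebrain transcription factor genes Lhx8 (0 reads), Lhx6 (7 reads) and Tbr1 (16 reads), and Adora2a (18 reads), the striatal adenosine receptor gene. The names of those not on the peptide list were picked after their values were seen. In IP replicate 3, 0 of 8939 genes with at least 10 CPM in the other IP libraries were under 1%, and Oxt and Avp there held 175 and 35 reads. With 1 library set against 2 others, these are values without a test.

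Other peptides ranged widely in that library. Of 25 other neuropeptide genes, 20 were lowest in unbound replicate 3, with a median of 26.3% of the other unbound libraries, and 9 were under 10%. Those 9 include Kiss1, whose 1, 0 and 0 reads in unbound replicates 1 to 3 carry no information. Over the 9369 genes with at least 10 CPM in both other unbound libraries the median was 103%, while the 25 peptide genes were taken without that limit. Among those 9369 genes Penk, at 7.73%, ranked 48 from the lowest and Npy, at 15.4%, ranked 92. The share of all genes lowest in this library was not counted. Pdyn, which is made with vasopressin in magnocellular neurons, was at 4.42%, Gal at 7.26% and Trh at 8.17%. The cells that the Pdyn reads came from cannot be told from bulk RNA. Crh, the releasing hormone of the paraventricular nucleus, was at 50.4%, and Cartpt (193%), Adcyap1 (159%) and Grp (206%) were higher there than in the others. The receptor genes kept more of their level, with Oxtr at 50.9% and Avpr1a at 33.9%.

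**Figure D3:**
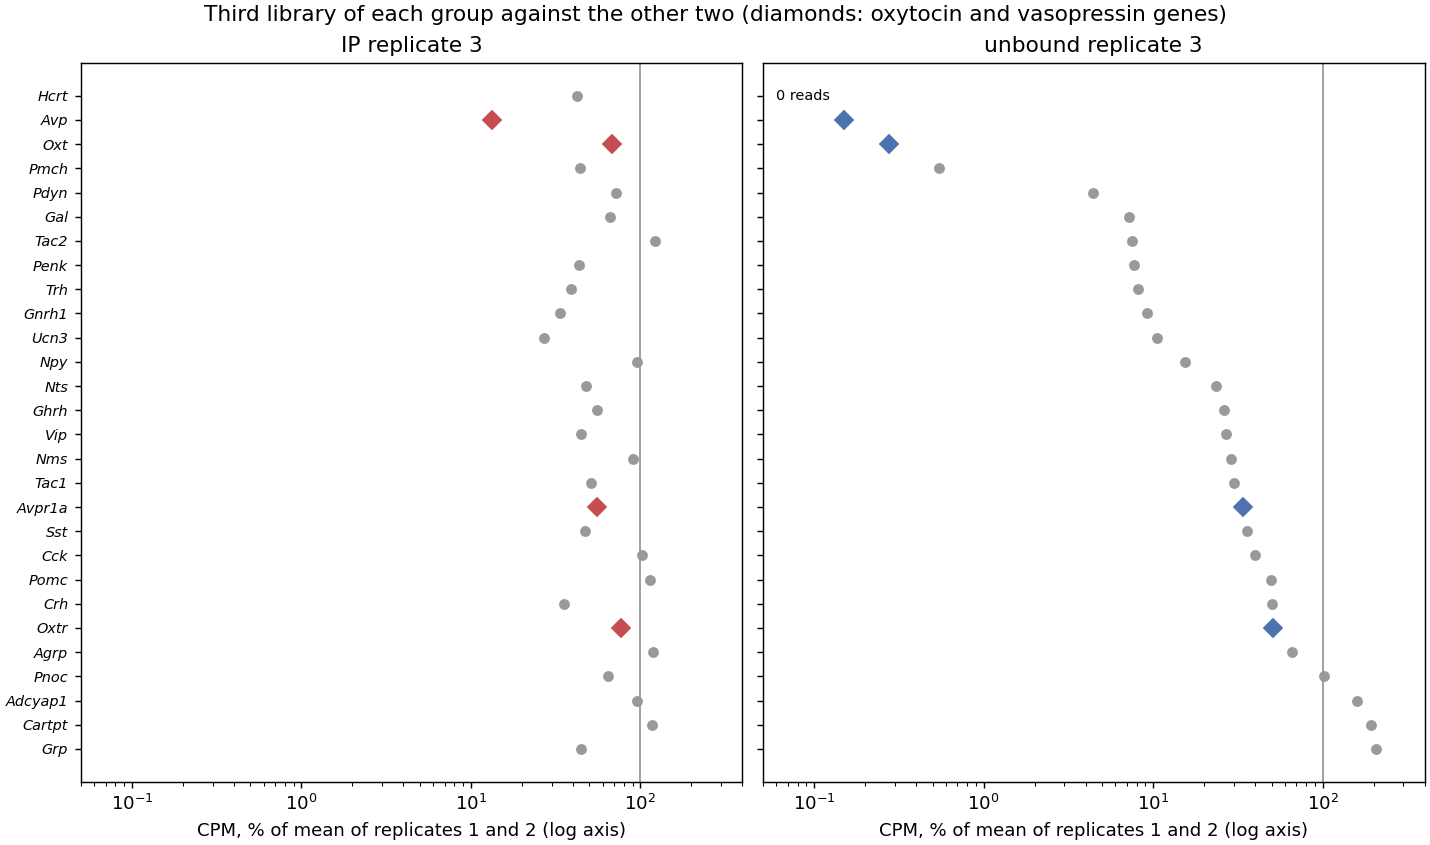
CPM in the third library of each group as a percentage of the mean of replicates 1 and 2 (log axis), IP left of unbound, for 4 of the oxytocin and vasopressin genes (diamonds) and 24 other neuropeptide genes (circles). In unbound replicate 3 Avp and Oxt lie at 0.150% and 0.278%, next to Hcrt with 0 reads, while in IP replicate 3 they lie at 13.3% and 68.5%.

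The ratio of Oxt to Avp reads does not depend on how libraries are scaled. It was 1.14 (0.948 to 1.37), 0.837 (0.679 to 1.03) and 5.0 (3.46 to 7.41) in IP replicates 1 to 3, against 0.593 (0.554 to 0.635), 0.463 (0.420 to 0.510) and 1.0 (0.134 to 7.47) in unbound replicates 1 to 3 (95% exact binomial intervals). Vasopressin reads outnumbered oxytocin reads in unbound replicates 1 and 2, and oxytocin reads outnumbered vasopressin reads clearly in IP replicate 3 alone. On the log2 scale (pseudocount 0.5) the mean ratio was 0.75 ± 1.37 in IP and -0.62 ± 0.57 in unbound libraries (SD, n = 3 each), a difference of 1.37 that was not larger than the spread (exact two-sided permutation test, p = 0.2, where 0.1 is the smallest p that 3 against 3 allows). Without IP replicate 3 the difference was 0.59.

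Among the receptors, Avpr1a and Oxtr were higher in IP RNA. They are 2 of the 4 members tested, while 44.3% of all 16991 genes tested were called, 21.1% higher in IP and 23.2% lower. Those calls were 3586 higher and 3943 lower with TMM scaling. With the geometric mean of 20 pan-neuronal markers as the scale (pan-neuronal scaling) they were 761 (4.48%) and 7433 (43.7%), and the median log2 fold change of all genes was then -0.57, against -0.01. Avpr1a encodes the V1a receptor, the vasopressin receptor of brain, vessel and liver, and lies on chromosome 10 at chr10:122448499-122453452, plus strand (GRCm38). It had 217, 116 and 110 reads in IP, which is 4.995, 3.57 and 2.38 CPM, against 70, 26 and 18 reads in unbound RNA, which is 1.82, 0.790 and 0.442 CPM. The lowest IP library lay above the highest unbound library, as it did for 23% of genes tested. IP libraries averaged 3.65 ± 1.31 CPM and unbound libraries 1.02 ± 0.71 CPM (SD, n = 3 each). That is a log2 fold change of 1.94 ± 0.54 (SE), or 3.84-fold, with adjusted p = 0.0178 (edgeR). The call was lost without IP replicate 1 (1.66, adjusted p = 0.0729, edgeR), without unbound replicate 2 (1.79, adjusted p = 0.0618, edgeR) and under pan-neuronal scaling (1.36, adjusted p = 0.0799, edgeR). An annotated antisense gene, Gm48877, overlaps Avpr1a, and without a stated strand setting reads of the pair cannot be told apart.

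Oxtr, the oxytocin receptor gene, lies on chromosome 6 at chr6:112473683-112489943, minus strand (GRCm38), with 0 overlapping genes annotated. It had 508, 393 and 421 reads in IP, which is 11.7, 12.1 and 9.09 CPM, against 341, 226 and 163 reads in unbound RNA, which is 8.85, 6.86 and 4.0 CPM. The groups did not overlap, but IP replicate 3 and unbound replicate 1 were within counting error of each other. IP libraries averaged 10.96 ± 1.63 CPM and unbound libraries 6.57 ± 2.44 CPM (SD, n = 3 each). The log2 fold change was 0.84 ± 0.29 (SE), which is 1.79-fold, and passed by a small margin (adjusted p = 0.0422, edgeR). It did not pass in 10 of 16 alternative fits, among them those without unbound replicate 3 (0.58, adjusted p = 0.0506, edgeR) and under pan-neuronal scaling (0.26, adjusted p = 0.520, edgeR).

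**Figure D4:**
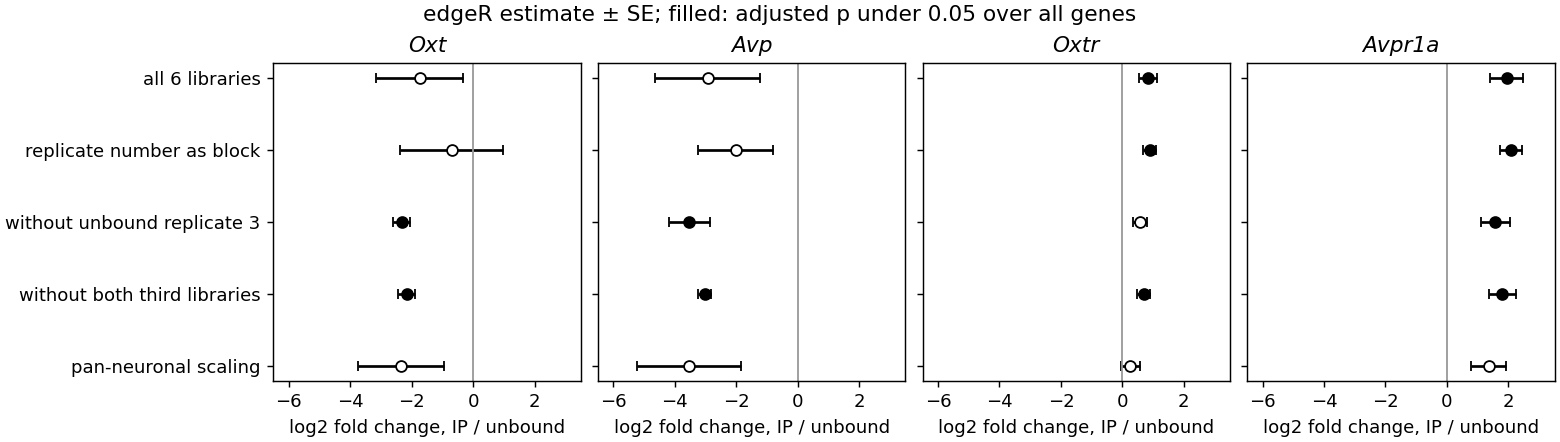
Log2 fold change of IP over unbound with its standard error for the 4 members tested, in 5 fits, with filled circles where the adjusted p was under 0.05. Avpr1a lies between 1.36 and 2.09 in these fits and Oxtr between 0.26 and 0.90, while Oxt and Avp lie below 0 and are called in the 2 fits that leave out unbound replicate 3.

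The receptors were also compared with each other and with their ligands. Over the 6 libraries the log2 CPM of Oxtr and Avpr1a correlated at 0.97 and that of Oxt and Avp at 0.94, against 0.62 for Oxt with Oxtr and 0.28 for Avp with Avpr1a (Pearson, a description over libraries that share depth and group). Oxtr reads outnumbered Avpr1a reads 2.34, 3.39 and 3.83 times in IP, and 4.87, 8.69 and 9.06 times in unbound RNA. The ratio was lower in each IP library than in any unbound library, nearest between IP replicate 3 (3.83) and unbound replicate 1 (4.87). No counting interval was computed for these ratios, and the Avpr1a reads may include reads of Gm48877.

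Avpr1b, the V1b receptor gene known for pituitary corticotropes and hippocampal area CA2, lies on chromosome 1 at chr1:131599239-131612000, plus strand (GRCm38), and was at the edge of detection. It had 2, 0 and 0 reads in IP and 2, 4 and 1 reads in unbound RNA. It did not pass the low-count filter, and no fold is given. A count of 0 allows up to 0.092 CPM in IP replicate 2 and 0.065 CPM in IP replicate 3 (3 reads of the library), and the two-sided 95% intervals in the plot of levels reach 0.114 and 0.080 CPM. Most pituitary hormone genes were close to absent as well, with Fshb at 0 reads in all 6 libraries and Prl at or below 0.078 CPM in each library. Gh and Cga had 0 reads in the IP libraries, and Gh had 14, 3 and 0 reads in unbound replicates 1 to 3. Tshb was an exception, with 31, 7 and 20 reads in IP and 74, 16 and 44 reads in unbound replicates 1 to 3. Lhb reached 22 reads in unbound replicate 3. The 6 CA2 markers, led by Pcp4, summed to 196 to 235 CPM in IP and 127 to 237 CPM in unbound libraries. Avpr2, the V2 receptor gene known for the kidney, was read 0 times in each IP library and 4, 3 and 7 times in unbound replicates 1 to 3.

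Per kilobase of annotated exon the order of levels differed between fractions. In IP RNA, Oxt averaged 9.20 ± 1.94 and Avp 6.99 ± 5.02 CPM per kb, Oxtr 2.29 ± 0.34, Avpr1a 1.37 ± 0.49 and Avpr1b 0.0038 ± 0.0066 CPM per kb (SD, n = 3). Oxt and Avp overlapped there, and Avp also overlapped Oxtr and Avpr1a, since it was at 1.31 CPM per kb in IP replicate 3. In unbound replicates 1 and 2 Avp was highest, at 101 and 69.4 CPM per kb, followed by Oxt at 64.1 and 34.5, Oxtr at 1.85 and 1.43, and Avpr1a at 0.680 and 0.296 CPM per kb. In unbound replicate 3 Oxtr was highest at 0.835 CPM per kb, and Avpr1a, Oxt and Avp at 0.165, 0.137 and 0.128 CPM per kb were within counting error of each other.

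Of 12 genes of prohormone processing and granule release, 6 were higher and 0 lower, with a median log2 fold change of 0.60 against -0.01 over all genes, of which 21.1% were higher and 23.2% lower. Under pan-neuronal scaling 1 of the 12 was higher, Pcsk1, against 4.48% of all genes. Pcsk1, a prohormone convertase, rose by 1.53, Scg2, a granin, by 1.25, Pam, which amidates the end of both hormones, by 1.22, and Pcsk1n, a convertase inhibitor, by 1.10 (adjusted p 0.00262 to 0.00457, edgeR). Cpe, the carboxypeptidase that trims the cleaved hormones, was at -0.02 and did not pass (adjusted p = 0.954, edgeR).

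Of 7 genes that regulate oxytocin and vasopressin neurons, 3 were higher and 1 lower in IP RNA, against 21.1% and 23.2% of all genes. Their median was -0.35, against -0.01 over all genes. Sim1 (3.96) and Otp (3.63), both required for these neurons in mice, rose on the log2 scale in all 16 alternative fits as well, and Arnt2 (0.41), the partner of Sim1, rose too but was at -0.15 and not called under pan-neuronal scaling. Caprin2, whose protein binds vasopressin mRNA in rats, fell by 0.96 (adjusted p = 0.0228, edgeR) and did not pass when unbound replicate 3, its highest library at 13.5 CPM, was left out (-0.64, adjusted p = 0.0534, edgeR). Creb3l1, a transcription factor of the Avp gene in rats, was at -0.61 and did not pass (adjusted p = 0.110, edgeR).

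Of 10 genes known from magnocellular neurons, 3 of which are also on the peptide list, 3 were higher and 1 lower, a share called close to the 44.3% of all genes. Their median was 0.30, and -0.25 under pan-neuronal scaling. Nos1, the neuronal nitric oxide synthase gene, was 37.7, 43.3 and 49.1 CPM in IP against 10.6, 13.1 and 13.8 CPM in unbound RNA (log2 1.89, adjusted p = 1.5e-04, edgeR). Calb2 (2.55), which was also listed as a thalamic marker, and the channel gene Trpv2 (1.20) rose as well. Cd38, whose enzyme promotes oxytocin release in mice, was 0.460, 0.770 and 0.238 CPM in IP against 9.65, 5.98 and 15.5 CPM in unbound RNA (log2 -4.34, adjusted p = 4.8e-04, edgeR). These 4 calls held in all 16 alternative fits.

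Downstream of the receptors, 5 of 17 signalling genes were higher and 2 lower, with a median of -0.46, a share called close to the 44.3% of all genes. Under pan-neuronal scaling 0 were higher and 7 lower, close to the 43.7% of all genes called lower there. Without unbound replicate 3, 6 were higher and 7 lower, against 24% and 25.8% of all genes. Gna11, a Gq family subunit that couples these receptors, rose by 0.51 and Grk6, a receptor kinase, by 0.78 (adjusted p = 0.00868 and 0.00856, edgeR), and neither was called under pan-neuronal scaling (-0.05 and 0.22). Plcb3, a phospholipase C, fell by 2.27 and Itpr2, an inositol trisphosphate receptor, by 1.98, in all 16 alternative fits as well. Of the peptidase genes, Lnpep, which encodes oxytocinase, was at 0.25 and Prep at 0.07, and neither passed (adjusted p = 0.241 and 0.807, edgeR).

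Of 24 other neuropeptide genes tested, 4 were higher in IP, Adcyap1, Nms, Pnoc and Trh, and 2 lower, Cck and Vip, with a median of 0.18, where 44.3% of all genes were called. Cck kept its call in 8 and Vip in 9 of 16 alternative fits. With the replicate block, 8 were higher and 2 lower, against 23.3% and 23.6% of all genes. Without unbound replicate 3, 7 were higher and 7 lower, against 24% and 25.8% of all genes, with a median of -0.08.

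Across the 6 libraries the profile of Oxt was most like that of Pdyn among 12852 named genes with a mean of at least 1 CPM (Pearson r = 0.998 of log2 CPM), followed by Sh3rf2, Rxrg, Sertad1 and Gucy1a3 (0.992 to 0.993). Pdyn was 13.1, 14.2 and 9.81 CPM in IP against 36.0, 27.2 and 1.40 CPM in unbound RNA. The profile of Avp was most like that of Adora2a (0.999), and Lppr4, Ptpn7 and Cnr1 were also among the 5 most like it (0.993 to 0.997). Adora2a was 7.94, 9.79 and 1.90 CPM in IP against 65.0, 47.7 and 0.442 CPM in unbound RNA. Oxtr was most like Atg101, Magohb, Nts, Zic4 and Tmem231 (0.991 to 0.996), and Avpr1a most like Gpc3, Gnptg, Rab36, Cnbp and Cgref1 (0.992 to 0.999). These values describe 6 libraries of which 1 stands apart.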

How the data were processed

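Gene read counts were deposited by the authors, 1 table per library. The submitters' processing notes name STAR 2.0.0e, HTSeq and the build mm10. For the annotation, strand setting and overlap mode, the sources used here give nothing. Rows that name no gene (alignment summaries and 1 unknown row), 52.3% to 55.0% of all reads listed, were left out of library sizes and tests.

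All genes were fitted with edgeR 4.0.16 in R 4.3.3 (TMM scaling, filterByExpr at its minimum count of 10 and total of 15, robust quasi-likelihood, group as the term, Benjamini-Hochberg adjustment over 16991 genes, threshold 0.05), tested on simulated data. A standard error was taken as the size of the log2 fold change over the square root of F. CPM levels were not TMM-scaled, but the log2 CPM behind the correlations was (prior count 2). TMM factors were 0.959 to 0.972 for IP and 1.02 to 1.05 for unbound libraries. Exact tests and intervals used SciPy 1.17.1. Alternatives were other scalings and filters, DESeq2 1.42.0, replicate number or lane in the model, and libraries left out.

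The labels share replicate numbers between groups, and lane follows them (lane 4 for replicate 2, lane 2 otherwise). Over genes, same-numbered libraries deviated together (correlations 0.14, 0.16 and 0.21, each over 0.1). The numbers were therefore treated as pairs in the library-by-library ratios and the replicate block, on this evidence alone since no label says so. The main fit and the main permutation test took the libraries as unpaired. Replicates differed by more than counting noise (chi-square per degree of freedom 23.0 to 136). Positions came from GENCODE M21 (GRCm38, the assembly of mm10) and promoters from RefSeq (GRCm38.p6), where 4 of the 5 members matched.

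Members and gene lists were chosen with earlier results of these data known. Besides the members, the rule for named genes took up to 4 genes per list with the smallest p, the most abundant gene of each marker list, and the 5 genes most like each of 4 members. Other genes named, such as Cpe, Creb3l1, Crh, Cartpt and Gal, were picked after their values were seen. Some items that the rule takes, and the summed pituitary marker level, are not reported here.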

Additional observations from a re-analysis of the deposited data

How the results depend on the processing

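Over 16 alternative fits no member changed direction. Oxt and Avp kept their side of the threshold except without unbound replicate 3 (-2.32 and -3.53) and without both libraries numbered 3 (-2.17 and -3.02), where they passed. With single libraries left out Oxt ranged from -2.32 to -0.81, Avp from -3.53 to -2.22, Oxtr from 0.58 to 1.14 and Avpr1a from 1.57 to 2.70. Oxtr did not pass with median-ratio size factors (0.80), library size alone (0.74), pan-neuronal scaling (0.26), at least 1 CPM in 3 libraries (0.79), lane as a covariate (0.84) or the lane 2 libraries alone (0.79), nor without IP replicate 1 or 2 or unbound replicate 2 or 3 (adjusted p 0.0506 to 0.114, edgeR). Avpr1a did not pass under pan-neuronal scaling (1.36), with the lane 2 libraries alone (1.80), or without IP replicate 1 or unbound replicate 2. Within lane 2 Oxt was at -1.75 and Avp at -3.22, and lane 4 holds 1 library per group. The cause of these changes was not tested. The replicate block changed the call of no member (Oxt -0.70, Avp -2.01, Oxtr 0.90, Avpr1a 2.09). Without a count filter Avpr1b was at -1.70 and not called (adjusted p = 0.420 over 23086 genes, edgeR).

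The number of genes called was 7529, 3835 with the lane 2 libraries alone (fewer samples), 5824 to 8587 with single libraries left out, 8121 with DESeq2 and 7969 with the replicate block. The difference in log2 Oxt to Avp ratio stayed above 0 in all 10 alternatives, from 0.59 to 1.87, with 1.37 in the replicate block. Low counts limit Avpr1b in all libraries, and Oxt and Avp in unbound replicate 3. That library had the most gene reads of the unbound libraries (40768577).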
